A study of Mus musculus with 4 samples.

Results

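Skeletal muscle genes were followed here in cultured mammary fibroblasts: 36 genes that encode the transcription factors of myogenesis, the proteins of the sarcomere, and the calcium, receptor, energy and fusion proteins of muscle. They were chosen by name. A probe set was assigned to a gene where the platform annotation gave it that single symbol, and a gene with several probe sets was read from the brightest of them, by the average of all 4 values. All 36 genes were found among 18194 singly named genes, on 59 probe sets, of which 24 genes had 1 and 12 had more than 1.

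The 4 arrays were 1 per genotype, each of second-passage mammary fibroblasts from FVB/N female mice at 16 weeks. ErbB2 Ets2 null cells came from ErbB2;Fsp-cre;Ets2db/loxP mice and ErbB2 Ets2 present cells from ErbB2;Ets2db/loxP mice. Normal Ets2 null cells came from FspCre;Ets2db/loxP mice and normal Ets2 present cells from Ets2db/loxP mice. All 4 genotypes carried the db allele, a conventional knockout of Ets2, beside a loxP allele, so that the Ets2 present cells had 1 functional copy. Cre was driven by the Fsp promoter, which acts in fibroblasts, and ErbB2 mice carry an oncogene under which mammary carcinomas arise from the epithelium beside these fibroblasts. With 1 array per genotype there was no spread between replicates and no test, and every difference below describes 2 arrays.

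Skeletal muscle is built when myoblasts leave the cell cycle and fuse. The transcription factors Myod1 and Myf5 commit cells to this fate, Myog drives their terminal differentiation, and Mef2c acts with them at muscle genes through E-boxes and neighbouring sites. The products are the sarcomere, in which thick myosin filaments slide along thin actin filaments under the control of the troponins, and its embryonic isoforms are replaced by adult fast or slow ones as fibers mature. Fibroblasts of the mammary stroma are not a source of such fibers, although stroma next to the gland holds vessels, smooth muscle and other cells. In a bulk sample, fewer cells of a type and less RNA per cell cannot be told apart.

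Values are log2 RMA expression values. A value below log2 6 was taken as not shown to be above background. As a guide to that mark, 39 olfactory receptor genes, which are expected to be silent here, had 2.56% of their values at or above 6 and a 95th percentile of 5.44; this list was taken up after values had been seen. Of the 36 genes, 19 reached 6 on at least 1 array, 5 on all 4 arrays, and 17 on none. Between 42.47% and 42.84% of all probe sets reached 6 on each single array, a share not reduced to 1 probe set per gene. The median log2 difference between paired arrays over all genes lay between -0.02 and 0.04, and the robust SD of those differences lay between 0.21 and 0.27. Fibroblast markers were high in all 4 cultures: Col1a2, a collagen gene, had 14.61 in ErbB2 Ets2 null, 14.55 in ErbB2 Ets2 present, 14.29 in normal Ets2 null and 14.52 in normal Ets2 present cells. Ets2, the targeted gene, did not show the deletion on its brightest probe set, with 8.31 in ErbB2 Ets2 null, 8.34 in ErbB2 Ets2 present, 8.35 in normal Ets2 null and 8.14 in normal Ets2 present cells. Its other probe sets also differed little, and whether any of them lies within the deleted part was not tested, so the labels were not checked by this gene.

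**Figure D1:**
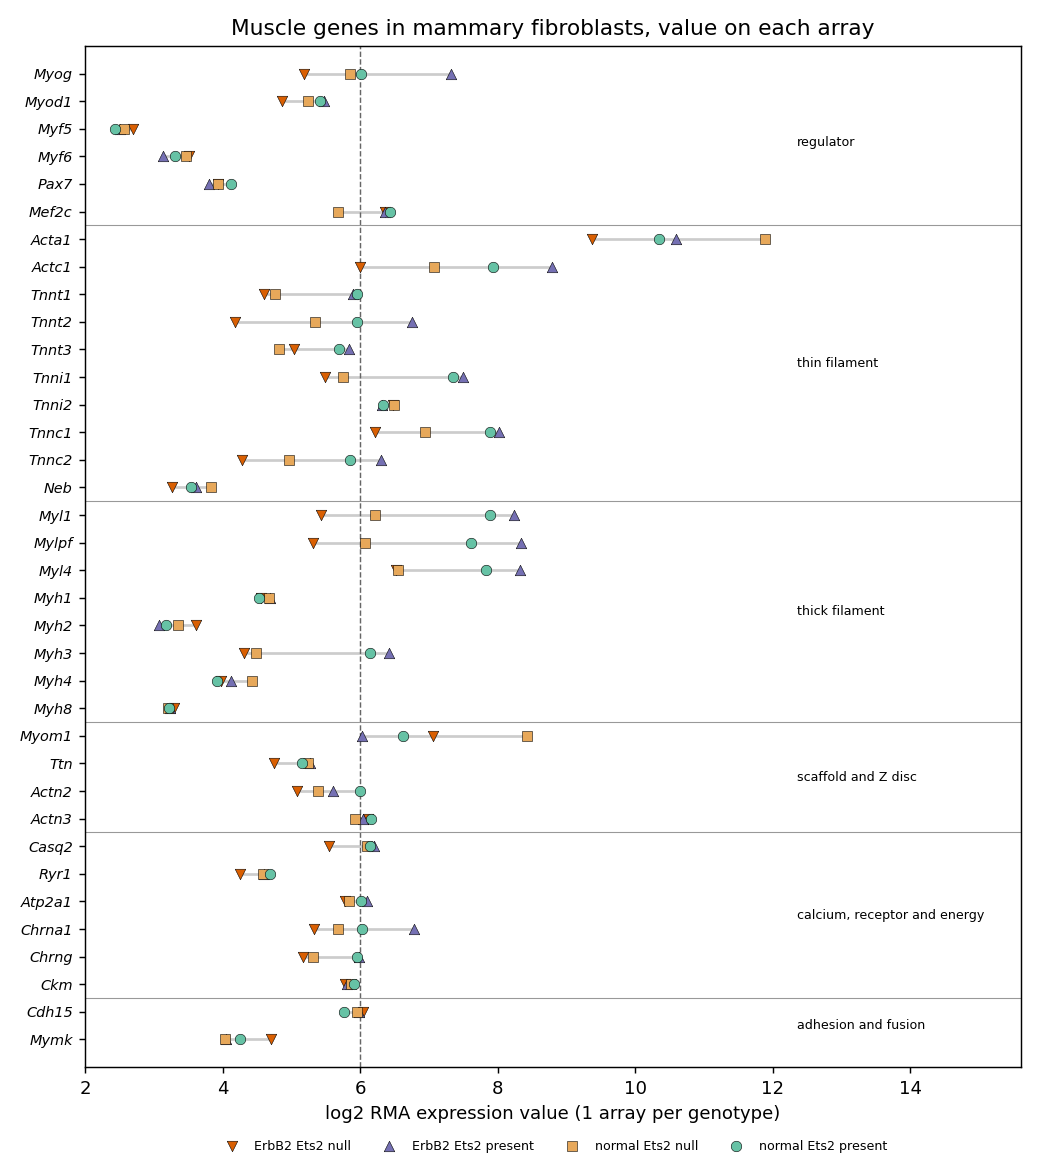
Log2 RMA value of each of the 36 muscle genes (rows, grouped by role) on the 4 arrays (symbols), with the dashed line at log2 6 and grey bars over the range of the 4 arrays. In 15 of the 36 genes the ErbB2 Ets2 present value was the highest and the ErbB2 Ets2 null value the lowest, and normal Ets2 present lay above normal Ets2 null in between.

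In ErbB2 fibroblasts, 13 of the 36 genes were lower by more than 2-fold in Ets2 null than in Ets2 present cells, against 1.74% of all genes, and 1 was higher (Myom1), against 0.341%. Past 4-fold, 7 were lower, against 0.324% of all genes. All 7 had an ErbB2 Ets2 null value under log2 6, so that the sizes of these differences are not measured below that mark, and with values under 6 set to 6 only 3 remained past 4-fold (Actc1, Myl1 and Mylpf) and 9 genes past 2-fold in either direction. The 7 were Myog, the troponin genes Tnnt2 and Tnnc2, the cardiac actin gene Actc1, the myosin light chain genes Myl1 and Mylpf, and the embryonic myosin heavy chain gene Myh3. The median difference was -0.52 over the 36 genes and 0.04 over all genes, and 0.00 over the 36 genes with values under 6 set to 6. Actc1, Myl1, Mylpf, Myog and Tnnt2 stand in a list of genes that the study picked for their ErbB2 difference on these arrays, so that their large differences here are not independent evidence. Of the genes not in that list, 2 were lower past 4-fold.

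In normal fibroblasts, 6 genes were lower by more than 2-fold in Ets2 null cells, against 0.357% of all genes, and 2 were higher, against 0.621%. None was past 4-fold, against 0.104% of all genes in either direction. The 6 genes were Tnnt1, Tnni1, Myl1, Mylpf, Myl4 and Myh3, all of which were also lower past 2-fold in ErbB2 fibroblasts, as 0.115% of all genes were. With values under 6 set to 6, Tnnt1 and Myh3 were within 2-fold in both backgrounds. In normal fibroblasts 6 of the 8 genes past 2-fold in either direction then remained. The 2 higher genes were Acta1 and Myom1. Below 0 in both backgrounds were 20 of the 36 genes, against 23.8% of all genes.

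**Figure D2:**
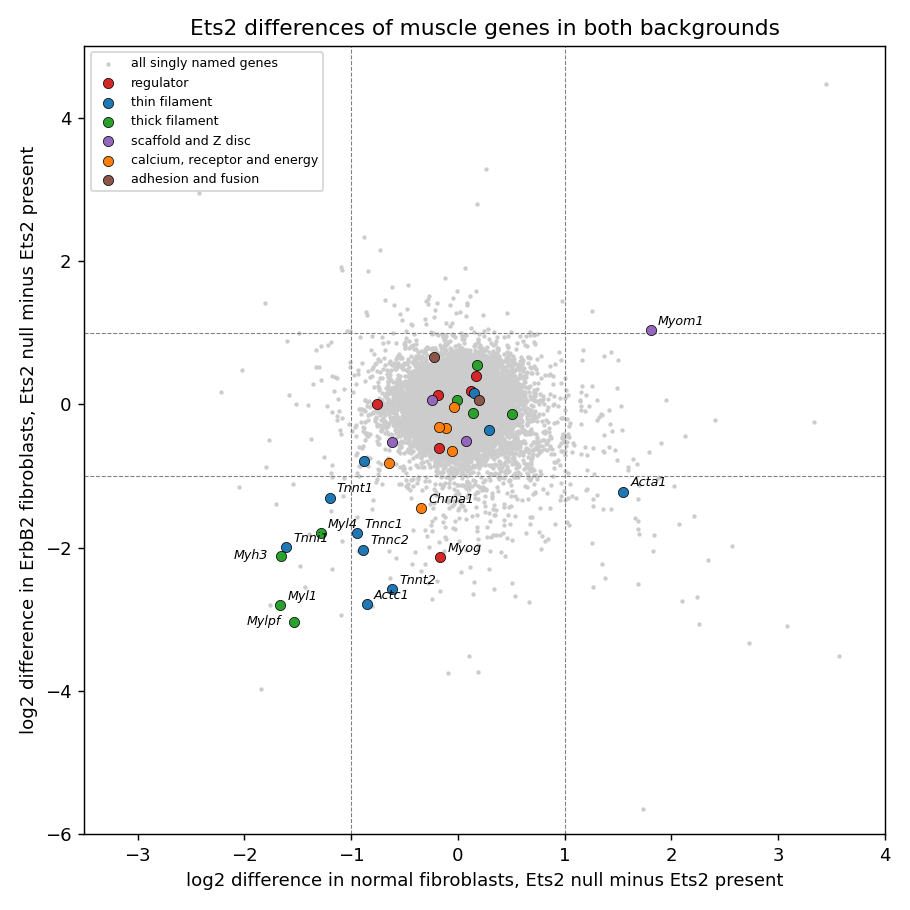
Log2 Ets2 differences (null minus present), normal cells along x and ErbB2 cells along y, for all singly named genes (grey) and the 36 muscle genes (coloured by role), with dashed lines at 2-fold. Genes past 2-fold in either background are named; the thick filament genes Myl1, Mylpf, Myl4 and Myh3 lie below -1 on both axes, and Acta1 lies at 1.55 on the x axis and -1.22 on the y axis.

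Among the 6 regulators, Myog was the only one past 2-fold in any of the 4 comparisons. Myog, the driver of terminal differentiation, had 5.18 in ErbB2 Ets2 null cells, against 7.31 in ErbB2 Ets2 present cells, and 5.85 in normal Ets2 null cells, against 6.01 in normal Ets2 present cells. The ErbB2 Ets2 present value was the highest of the 4. Both Ets2 null values were below 6, and with values under 6 set to 6 the differences of Myog were -1.31 in ErbB2 and -0.013 in normal fibroblasts. Myod1, which commits cells to the muscle fate, had 4.85 in ErbB2 Ets2 null, 5.47 in ErbB2 Ets2 present, 5.24 in normal Ets2 null and 5.42 in normal Ets2 present cells, all below 6. Mef2c, a partner of these factors, had 6.35 in ErbB2 Ets2 null, 6.35 in ErbB2 Ets2 present, 5.67 in normal Ets2 null and 6.43 in normal Ets2 present cells on its brightest probe set. Myf5, Myf6 and the satellite cell factor Pax7 stayed between 2.43 and 4.12 on every array.

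The regulators and the sarcomere genes are compared by their differences. The 6 regulators had a median of 0.07 in ErbB2 fibroblasts and -0.17 in normal fibroblasts. Of the 6, 4 were under log2 6 on every array, and the ErbB2 median had no settled sign: it was -0.01 with the mean of each gene's probe sets and -1.06 over the 2 regulators with a mean of 6 or more. The 22 sarcomere genes had medians of -1.005 in ErbB2 fibroblasts and -0.61 in normal fibroblasts. Without the probe sets whose suffix marks shared probes, the medians were -0.51 and -0.24 over 17 genes. Acta1, Myl1, Tnni1, Tnnt1 and Tnnt3 had no other probe set and were left out there. With values under 6 set to 6, the medians of the 22 genes were 0.00 in both backgrounds. Of those 22, 11 were lower and 1 was higher past 2-fold in ErbB2 fibroblasts, and 6 were lower and 2 were higher in normal fibroblasts. Of all genes, 1.74% were lower and 0.341% higher in ErbB2 fibroblasts, and 0.357% were lower and 0.621% higher in normal fibroblasts. On the ErbB2 Ets2 null array 6 of the 22 sarcomere genes reached log2 6, against 13 on the ErbB2 Ets2 present array. On the normal Ets2 null array 8 did, against 11 on the normal Ets2 present array. Of all probe sets, 42.84% reached 6 on the ErbB2 Ets2 null and 42.68% on the ErbB2 Ets2 present array. The shares were 42.82% on the normal Ets2 null and 42.47% on the normal Ets2 present array.

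Thin filament genes gave the largest group, with 7 of 10 lower past 2-fold in ErbB2 fibroblasts, against 1.74% of all genes. Actc1, the cardiac actin that embryonic muscle also uses, had 5.997 in ErbB2 Ets2 null cells, just under 6, against 8.79 in ErbB2 Ets2 present cells, and 7.07 in normal Ets2 null cells, against 7.93 in normal Ets2 present cells. Both Ets2 null values were below their Ets2 present values, at -2.79 in ErbB2 fibroblasts once the ErbB2 Ets2 null value is set to 6, and at -0.86 in normal fibroblasts. Tnnc1, the slow and cardiac troponin C, had 6.21 in ErbB2 Ets2 null and 8.01 in ErbB2 Ets2 present cells, and 6.94 in normal Ets2 null and 7.88 in normal Ets2 present cells. In the ErbB2 pair, where both values were above 6, Tnnc1 was lower 3.49-fold.

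Tnni1, the slow troponin I, had 5.49 in ErbB2 Ets2 null and 7.48 in ErbB2 Ets2 present cells, and 5.74 in normal Ets2 null and 7.35 in normal Ets2 present cells. Its lower values were below the mark at 6, so that no fold is given. Tnnt1, the slow troponin T, had 4.59 in ErbB2 Ets2 null and 5.90 in ErbB2 Ets2 present cells, and 4.75 in normal Ets2 null and 5.96 in normal Ets2 present cells, all below 6. Tnnt2, the cardiac and embryonic troponin T, had 4.17 in ErbB2 Ets2 null and 6.75 in ErbB2 Ets2 present cells, and 5.33 in normal Ets2 null and 5.95 in normal Ets2 present cells. Tnnc2, the fast troponin C, had 4.28 in ErbB2 Ets2 null and 6.30 in ErbB2 Ets2 present cells, and 4.97 in normal Ets2 null and 5.85 in normal Ets2 present cells. Both Ets2 null arrays lay below both Ets2 present arrays for all 4 of these genes. Tnnt3, the fast troponin T, was within 2-fold, at -0.79 in ErbB2 and -0.88 in normal fibroblasts. Tnni2, the fast troponin I, lay between 6.31 and 6.48 on the 4 arrays on its brightest probe set, whose suffix marks shared probes. Neb, which encodes the thin filament ruler nebulin, lay between 3.25 and 3.83.

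Acta1, the adult skeletal actin, did not share that pattern. It had 9.37 in ErbB2 Ets2 null cells, against 10.59 in ErbB2 Ets2 present cells, and 11.89 in normal Ets2 null cells, against 10.34 in normal Ets2 present cells. Acta1 was lower 2.33-fold in the ErbB2 pair and higher 2.92-fold in the normal pair, and between the 2 Ets2 null arrays it differed by -2.52. Its single probe set carries a suffix (a_at) that marks probes shared among transcripts of 1 gene.

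Of 8 thick filament genes, 4 were lower past 2-fold in both backgrounds, against 0.115% of all genes. Myl1, a fast skeletal light chain, had 5.43 in ErbB2 Ets2 null and 8.23 in ErbB2 Ets2 present cells, and 6.22 in normal Ets2 null and 7.88 in normal Ets2 present cells. Mylpf, the fast regulatory light chain, had 5.30 in ErbB2 Ets2 null and 8.34 in ErbB2 Ets2 present cells, and 6.07 in normal Ets2 null and 7.61 in normal Ets2 present cells. In both genes the 2 Ets2 null arrays lay below the 2 Ets2 present arrays, and the Ets2 difference in normal fibroblasts was a 3.17-fold lower level for Myl1 and 2.91-fold for Mylpf.

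Myl4, the light chain of embryonic muscle and atrium, had 6.52 in ErbB2 Ets2 null and 8.32 in ErbB2 Ets2 present cells, and 6.55 in normal Ets2 null and 7.83 in normal Ets2 present cells, 3.48-fold and 2.43-fold lower. Myh3, the embryonic heavy chain, had 4.31 in ErbB2 Ets2 null and 6.42 in ErbB2 Ets2 present cells, and 4.48 in normal Ets2 null and 6.14 in normal Ets2 present cells. Myh3 was thus above 6 in both Ets2 present cultures and below it in both Ets2 null cultures. With values under 6 set to 6 the differences of Myh3 were -0.42 in ErbB2 and -0.14 in normal fibroblasts, within 2-fold. The other heavy chain genes of the same cluster on chromosome 11, Myh2, Myh1, Myh4 and Myh8, lie beside it in that order and were at 4.69 or less on every array on their brightest probe sets.

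**Figure D3:**
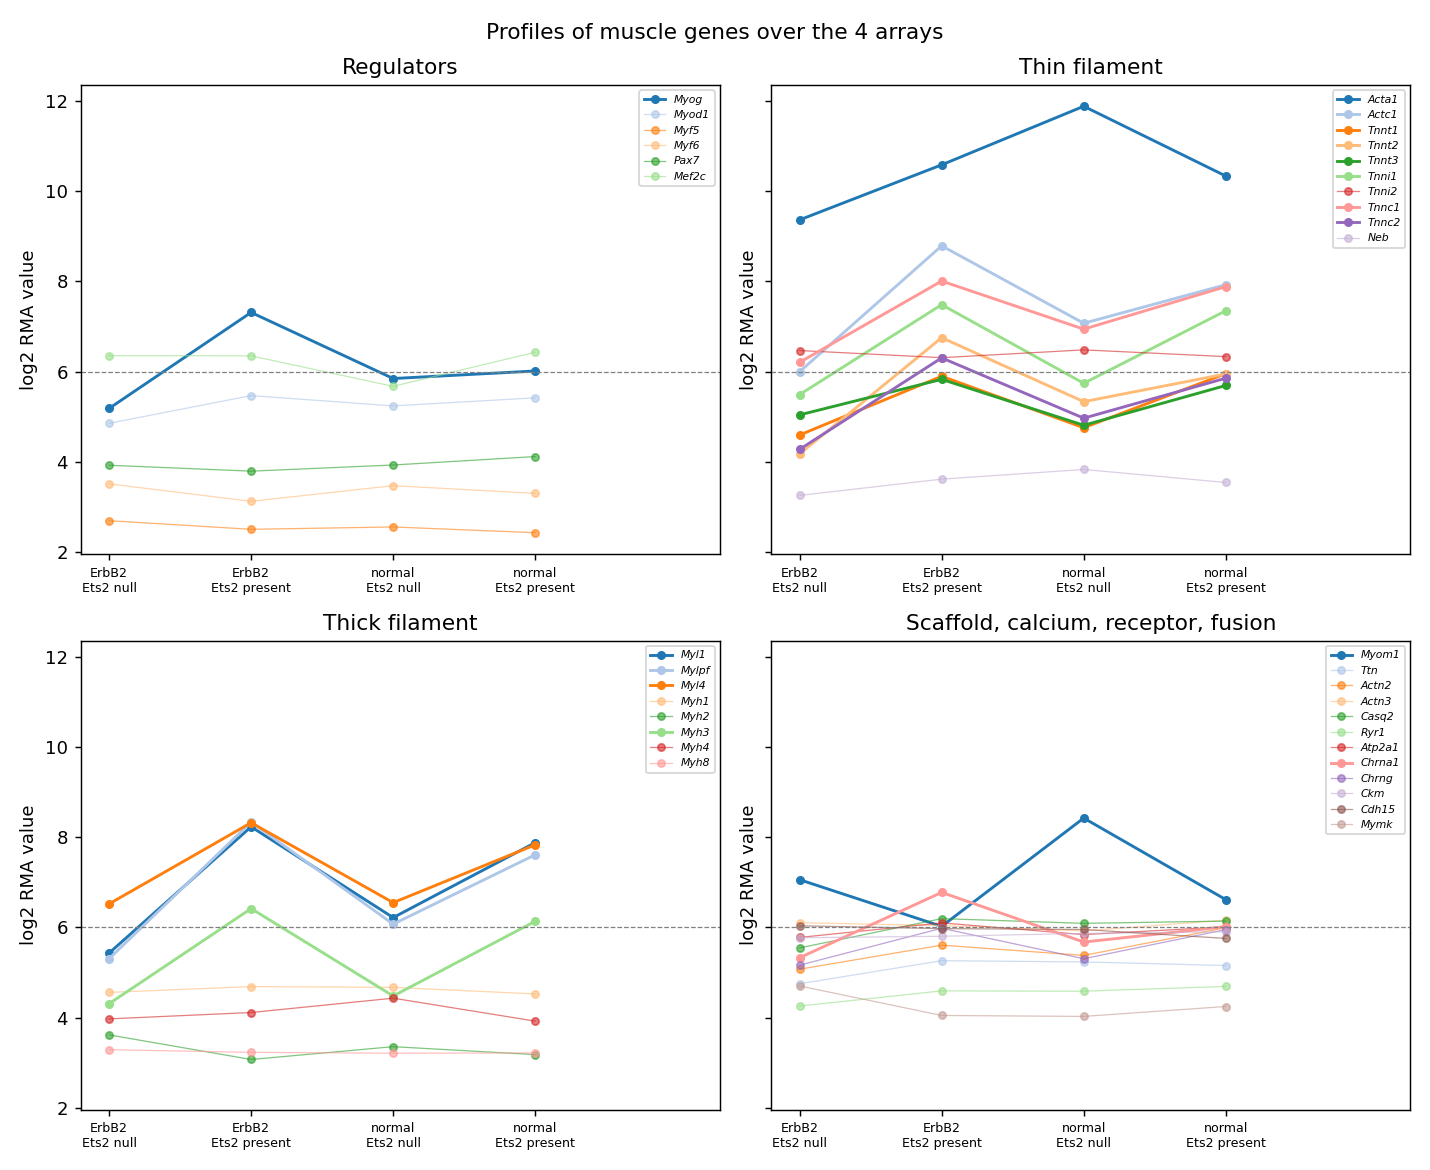
Log2 RMA value over the 4 arrays for the regulators, thin filament, thick filament and remaining genes, with thick lines for genes whose range over the arrays exceeded 1 and the dashed line at log2 6. Myl1, Mylpf, Myl4, Myh3, Tnni1 and Tnnc1 are higher on both Ets2 present arrays than on both Ets2 null arrays, with Myh3 only just above the dashed line. Acta1 and Myom1 peak on the normal Ets2 null array and Myog on the ErbB2 Ets2 present array.

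Embryonic and adult isoforms differed in their medians. The 6 embryonic genes (Myh3, Myh8, Myl4, Actc1, Tnnt2 and Chrng) had a median of -1.96 in ErbB2 and -0.75 in normal fibroblasts. Of the 6, 4 and 2 were lower past 2-fold, against 1.74% and 0.357% of all genes. With values under 6 set to 6 the embryonic medians were -0.58 and -0.068. The 4 adult genes (Acta1, Myh1, Myh2 and Myh4) had -0.13 and 0.34. Only Acta1 among the adult genes reached 6 on any array, so that the adult median rests on values near background for 3 of its 4 genes. The 4 slow or cardiac genes Tnnt1, Tnni1, Tnnc1 and Casq2 had -1.55 and -1.07, and the 5 fast genes Tnnt3, Tnni2, Tnnc2, Atp2a1 and Actn3 had -0.32 and -0.24. The fast light chains Myl1 and Mylpf are not among those 5. With them, in a grouping added after seeing the data, the 7 fast genes had -0.79 and -0.88, and with the adult fast heavy chains Myh1, Myh2 and Myh4 as well the 10 had -0.23 and -0.21, so that a slow and fast contrast depends on which genes are counted.

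Scaffold genes were led by Myom1, the M band protein myomesin, which ran the other way. It had 7.06 in ErbB2 Ets2 null cells, against 6.02 in ErbB2 Ets2 present cells, and 8.42 in normal Ets2 null cells, against 6.61 in normal Ets2 present cells. Both Ets2 null values were higher, 2.05-fold and 3.50-fold, although after median centring of the arrays the ErbB2 difference was within 2-fold. The giant spring protein gene Ttn and the Z disc actinins Actn2 and Actn3 were within 2-fold in all comparisons.

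Of the calcium, receptor and energy genes, Chrna1, the alpha subunit of the muscle acetylcholine receptor, had 5.33 in ErbB2 Ets2 null and 6.78 in ErbB2 Ets2 present cells, and 5.67 in normal Ets2 null and 6.02 in normal Ets2 present cells. Both Ets2 null values were below 6, and with values under 6 set to 6 the differences of Chrna1 were -0.78 in ErbB2 and -0.015 in normal fibroblasts, within 2-fold. Chrng, the fetal receptor subunit, had 5.16 in ErbB2 Ets2 null and 5.98 in ErbB2 Ets2 present cells, and 5.30 in normal Ets2 null and 5.95 in normal Ets2 present cells. The calcium store protein Casq2, the release channel Ryr1, the calcium pump Atp2a1 and the creatine kinase Ckm were within 2-fold in all comparisons. Ckm, an abundant product of mature muscle, lay between 5.77 and 5.90 on the 4 arrays. The adhesion gene Cdh15 lay between 5.75 and 6.03, and the fusion gene Mymk between 4.02 and 4.70.

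Promoter windows are shown for genes with a difference past 2-fold: Myog, Mylpf and Chrna1 with E-boxes, the sites of Myod1 and Myog, and Actc1 and Acta1 with CArG boxes, the sites of serum response factor. Each gives the 150 bases before the RefSeq start (GRCm38.p6), 5′ to 3′ in the direction of the gene, with these motifs in capitals. They were chosen after the positions of the motifs had been seen and are not a sample of the genes. In build coordinates they are chr1:134289854-134290003 (plus strand), chr7:127211458-127211607 (plus strand), chr2:73580339-73580488 (minus strand), chr2:114052876-114053025 (minus strand) and chr8:123894776-123894925 (minus strand).
Myog: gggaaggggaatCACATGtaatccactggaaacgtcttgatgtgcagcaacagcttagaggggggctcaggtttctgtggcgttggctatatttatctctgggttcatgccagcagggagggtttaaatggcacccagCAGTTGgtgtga
Mylpf: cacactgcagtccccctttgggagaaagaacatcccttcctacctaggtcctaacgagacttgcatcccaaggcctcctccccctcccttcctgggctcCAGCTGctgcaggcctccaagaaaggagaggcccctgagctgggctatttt
Chrna1: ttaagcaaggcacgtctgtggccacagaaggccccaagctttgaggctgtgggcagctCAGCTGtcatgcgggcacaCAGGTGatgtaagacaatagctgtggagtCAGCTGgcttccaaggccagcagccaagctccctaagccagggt
Actc1: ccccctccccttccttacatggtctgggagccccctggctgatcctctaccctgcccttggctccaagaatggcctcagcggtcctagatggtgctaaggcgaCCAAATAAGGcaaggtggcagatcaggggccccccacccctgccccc
Acta1: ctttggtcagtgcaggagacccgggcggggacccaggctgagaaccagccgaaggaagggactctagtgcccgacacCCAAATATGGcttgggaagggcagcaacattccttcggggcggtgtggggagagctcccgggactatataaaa
RefSeq promoters matched 29 of the 36 genes, 33 promoters in all. In the 250 bases before the start an E-box (CANNTG on either strand) lay in 75.76% of them, against 66.22% of all promoters, and its form CAGCTG, which every CANNTG count includes, in 33.33%, against 13%. TATAAA, read on both strands, lay in 27.27%, against 12.37%. The CArG box lay in 12.12%, against 1.467%, and the MEF2 box in 15.15%, against 2.919%. These 5 motifs were all that were searched. Shares are per promoter, so that Mef2c, Tnni1 and Tnnt2, with several promoters, enter more than once. The windows of Tnni1 overlap, and the same CAGCTG was counted in each of them. No E-box lay in the 250 bases of Actc1, Myf5, Myh1, Myh2, Myl4, Pax7 or Ryr1. A match is a description of letters and not of binding.

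The oncogene comparisons share arrays with the Ets2 comparisons. Between ErbB2 Ets2 present and normal Ets2 present cells, 1 of the 36 genes was past 2-fold, Myog at 1.30 higher, against 0.830% of all genes higher, and none was past 4-fold, against 0.121%. Between ErbB2 Ets2 null and normal Ets2 null cells, 4 were lower past 2-fold, against 1.51% of all genes: Acta1, Actc1, Tnnt2 and Myom1, with Acta1 past 4-fold, against 0.220%. The Ets2 difference in ErbB2 fibroblasts minus that in normal fibroblasts was below -1 for 8 genes (Acta1, Myog, Tnnt2, Actc1, Mylpf, Tnnc2, Myl1 and Chrna1), against 3.28% of all genes, and above 1 for none, against 1.14%. Its median was -0.33 over the 36 genes and 0.04 over all genes. The order ErbB2 Ets2 present, normal Ets2 present, normal Ets2 null, ErbB2 Ets2 null, high to low, held in 15 of 36 genes, against 5.18% of all genes.

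Probe sets of 1 gene could give different values. Myh1 had -0.13 in ErbB2 fibroblasts on the brightest probe set, which was used, and -2.10 and -2.25 on the other sets, whose suffixes mark probes shared within a gene or gene family. Those other sets had 3.07 and 3.07 in ErbB2 Ets2 null and 5.17 and 5.32 in ErbB2 Ets2 present cells, below 6 throughout; which myosin gene they measured was not tested. Myl4 had -1.80 on the brightest set and -0.48 on the other. Tnnt2 had -2.58 and -2.39 on 2 sets and 0.04 on the third. Ttn had sets between -1.08 and 0.03. Tnni2 had 0.16 on the brightest set and -0.65 and -0.04 on its other sets, which were below 6 on every array.

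**Figure D4:**
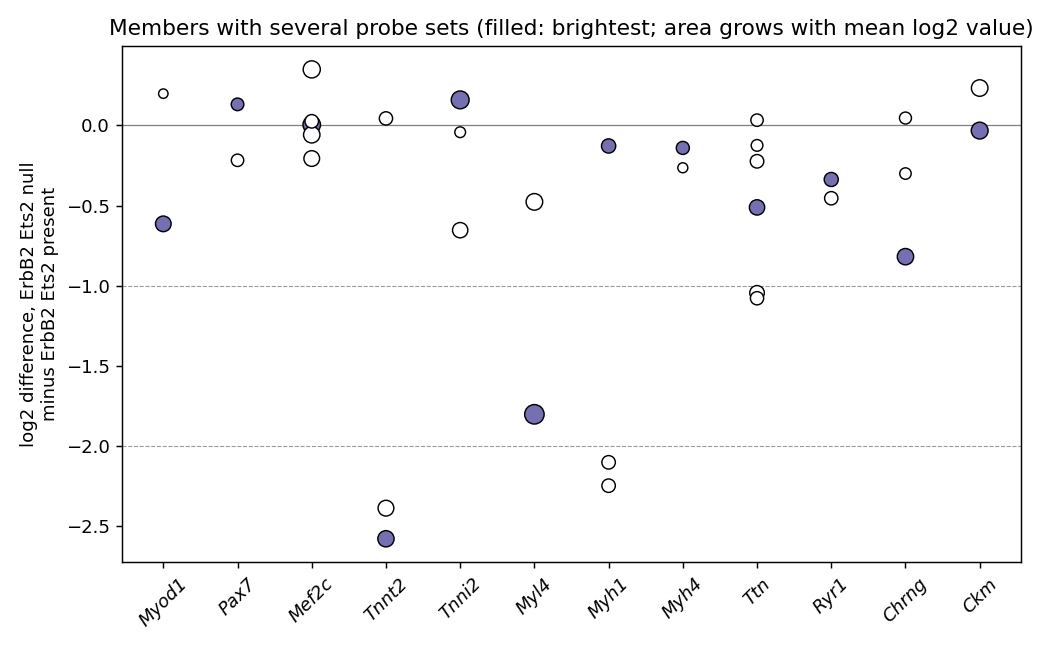
Log2 difference ErbB2 Ets2 null minus ErbB2 Ets2 present for every probe set of the 12 muscle genes with more than 1, with the brightest set filled and marker area growing with the mean log2 value. The sets of Myh1, Myl4, Tnnt2 and Ttn spread over more than 1 log2 unit.

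Other lists of muscle genes had medians near 0. On each array between 24 and 28 of 75 further muscle genes reached log2 6, and 2 or 3 of 18 cardiac markers. The medians of these 2 lists therefore rest mostly on values below that mark. Of 38 satellite cell and myogenic control genes, 18 to 22 reached it. Of 75 further muscle genes measured, 3 were lower past 2-fold in ErbB2 fibroblasts (Dmd, Ankrd1 and Cav3), against 1.74% of all genes, with a median of -0.02. In normal fibroblasts 2 were higher, against 0.621%, with a median of -0.03. Dmd, the dystrophin gene, had 7.51 in ErbB2 Ets2 null and 9.15 in ErbB2 Ets2 present cells. Cav3 had 4.94 in ErbB2 Ets2 null and 5.95 in ErbB2 Ets2 present cells, both below log2 6. Of 38 satellite cell and myogenic control genes, 5 were lower past 2-fold in ErbB2 fibroblasts, against 1.74% of all genes. In the same pair 1 was higher, against 0.341%. Among the lower genes were the inhibitor Id2 at -1.68 and follistatin, Fst, at -1.65, both higher past 2-fold in normal fibroblasts. The 18 cardiac markers had medians of 0.13 and 0.08, and none was past 2-fold in either Ets2 comparison.

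Markers of other cells also differed in the same comparisons, and their part in the muscle gene differences was not tested. Beside the counts below, 1.74% of all genes were lower and 0.341% higher past 2-fold in ErbB2 fibroblasts. In normal fibroblasts 0.357% of all genes were lower and 0.621% higher. Of 18 myeloid markers, 12 were lower past 2-fold in ErbB2 fibroblasts, with a median of -1.28, and 1 in normal fibroblasts, with a median of -0.27. Their log2 summed level was 13.07 in ErbB2 Ets2 null, 14.42 in ErbB2 Ets2 present, 13.23 in normal Ets2 null and 13.50 in normal Ets2 present cells. Of 16 epithelial markers, 10 were lower in ErbB2 and 9 higher in normal fibroblasts, with medians of -1.49 and 1.37; Krt18, a keratin gene, was at 5.01 in ErbB2 Ets2 null, 8.52 in ErbB2 Ets2 present, 8.78 in normal Ets2 null and 5.21 in normal Ets2 present cells. The log2 summed level of the epithelial markers was 9.96 in ErbB2 Ets2 null, 11.57 in ErbB2 Ets2 present, 11.89 in normal Ets2 null and 10.42 in normal Ets2 present cells. Epcam, an epithelial adhesion gene, was within 2-fold in both on the probe set used, at -0.21 and -0.31. The study lists Epcam on another probe set as higher past 4-fold in normal Ets2 null than in normal Ets2 present cells. Epcam was therefore not shown to be unchanged. Smooth muscle markers, 17 in all, had medians of -0.45 and 0.17, with 2 lower past 2-fold in ErbB2; the smooth muscle actin gene Acta2 lay between 13.99 and 14.30 on the 4 arrays. Past 2-fold, 1 of the 17 was lower and 2 were higher in normal fibroblasts. Rgs5, a pericyte gene, had -1.44 there and the largest ErbB2 difference of the list, with 5.29 in ErbB2 Ets2 null and 7.84 in ErbB2 Ets2 present cells, while the pericyte genes Cspg4 and Pdgfrb were within 2-fold in both backgrounds, at -0.58 and 0.09 in ErbB2 fibroblasts. The smooth muscle genes Myh11 and Cnn1 were at 0.25 and 0.46 in ErbB2 and 1.16 and 0.52 in normal fibroblasts. In ErbB2 fibroblasts these 2 ran against the median of their list. Lmod1, Synpo2, Smtn and Des had -1.08, -0.90, -0.86 and -0.81 in ErbB2 and 0.48, 0.07, 0.17 and -0.75 in normal fibroblasts. The 11 endothelial markers had medians of -0.48 and -0.67, with 2 lower past 2-fold in ErbB2 and 3 in normal fibroblasts, and none higher. The 8 Schwann cell markers had -0.07 and -0.04, and the 9 adipocyte markers -0.24 and 0.13. Fibroblast markers, 19 in all, had -0.03 and -0.23.

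**Figure D5:**
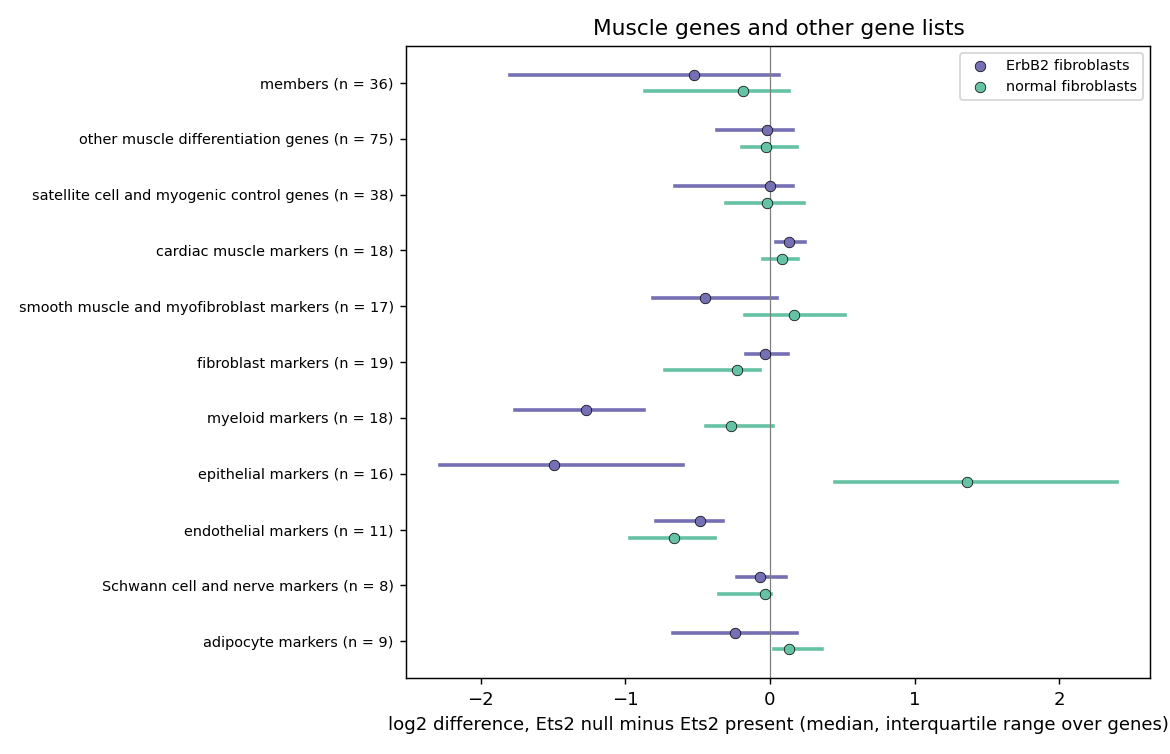
Medians of Ets2 null minus Ets2 present (log2), with the interquartile range over genes, for the 36 muscle genes and 10 other lists in ErbB2 and normal fibroblasts. Myeloid and epithelial markers are the lists whose medians lie below -1 in ErbB2 fibroblasts.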

How the data were processed

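Fibroblast RNA of 4 genotypes was hybridised to Affymetrix mouse genome arrays, 1 per genotype. The authors deposited log2 values of 45101 probe sets made, per the submitters' processing notes, by RMA, which background-corrects, normalises and summarises probes (software and version not given in the sources used here). Of the probe sets, 34958 had 1 gene symbol, 932 several and 9211 none, giving 18194 genes. The highest-mean probe set of each gene was used. Differences were counted past 4-fold (the size that the study used) and 2-fold, beside the share of all genes past the same size. No test was possible with 1 array per group. Every one of the 36 genes may be named; from each other list, the 6 genes with the largest ErbB2 difference above log2 6 and the 4 highest, and Cav3, named after its values were seen because it completes a count of 3, and Pdgfrb, Myh11 and Cnn1, named after their values were seen to balance Rgs5. The genes and lists were chosen with earlier results of these data known; the olfactory mark and the choice of promoters came after values had been seen, and 4 sex-linked genes looked at for the same mark were not used. Scripts were tested on simulated data; Python 3.11.15, pandas 2.3.3 and numpy 2.4.6 were used. Alternatives included other probe set choices, floors, centring and sizes.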

Additional observations from a re-analysis of the deposited data

Results flagged for a closer look

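Acta1, the adult skeletal actin gene, differed in direction between backgrounds: Ets2 null minus Ets2 present was -1.22 in ErbB2 fibroblasts and 1.55 in normal fibroblasts, a difference of -2.77 between the 2. It drew attention because it exceeded 2-fold in opposite directions, a size chosen after values had been seen. With 1 array per genotype this difference was not tested.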

How the results depend on the processing

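No paired analysis was possible because each genotype had 1 array, and for the same reason no array could be left out. Of 162 alternative values over 21 results, 124 stayed within the limits set for them, and 38 moved. The 124 include counts of 0 that stayed 0. They also include medians smaller in size than the robust SD of single genes, which could become 0.00 and still count as staying. An example is the median of the 36 genes in normal fibroblasts, -0.18, which was 0.00 with values under 6 set to 6. The ErbB2 median of the regulators, 0.07, changed sign under 2 of them, to -0.01 with the mean of the probe sets and -1.06 with genes of mean 6 or more; no other median did, although some became 0.00; the robust SD used to judge whether a median moved was chosen after values had been seen. For ErbB2 Ets2 null minus ErbB2 Ets2 present, the 7 members past 4-fold became 4 among the 12 genes with a mean of log2 6 or more, 3 with values under 6 set to 6, 1 at 8-fold and 2 without the genes the study lists; the 14 past 2-fold became 9 without the probe sets of shared suffix, with a mean of 6 or more, with values set to 6, and without the listed genes. The 8 past 2-fold in normal fibroblasts became 4 without those probe sets and 6 with values under 6 set to 6. Acta1, Myl1, Tnni1 and Tnnt1 have only suffixed probe sets, so they left these 2-fold counts by no longer being measured. Counts without the listed genes could likewise only stay or fall. For ErbB2 Ets2 present minus normal Ets2 present, the 1 gene became 0 without the listed genes. For ErbB2 Ets2 null minus normal Ets2 null, the 1 gene past 4-fold became 0 without the suffixed probe sets and 0 at 8-fold, and the count past 2-fold became 2 without those probe sets and 2 without the listed genes. That 1 gene was Acta1, so the 0 without suffixed probe sets was fixed by leaving it out. With genes of mean 6 or more, the medians were -1.80 for ErbB2 and -0.81 for normal Ets2 differences and -0.70 between the Ets2 null arrays; -1.06 and -0.46 for 2 regulators, -1.80 and -0.90 for 10 sarcomere genes, -2.30 and -1.07 for 2 embryonic isoforms, -1.22 and 1.55 for 1 adult isoform, and -0.82 for the difference of the Ets2 differences. With values under 6 set to 6, the ErbB2 median of all members and both sarcomere medians were 0.00, the embryonic medians -0.58 and -0.068, and the adult median in normal fibroblasts 0.00. The mean in place of the median gave -0.81 in ErbB2 fibroblasts. Without the suffixed probe sets the sarcomere medians were -0.51 and -0.24, over the 17 genes still measured, and the ErbB2 embryonic median -1.31. The mean of probe sets gave -1.39 for embryonic and -0.71 for adult isoforms in ErbB2 fibroblasts. Median centring took Myom1 out of the ErbB2 2-fold count and put Tnni1 into the 4-fold count. Any probe set past the size, an alternative added after seeing the data, brought in Myh1 at 4-fold. Values near background limit the low genes.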
